A study of Gallus gallus with 4 samples.

Results

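The genes described here had higher RNA levels with a FOXL2 plasmid than with the empty control plasmid in chicken granulosa cells of both follicle phases studied. Members were chosen from the measured values themselves: a gene's FPKM, averaged over the 4 libraries, had to reach 1, and it needed a log2 ratio of FOXL2 over control of at least 0.4, computed on FPKM + 1, in preovulatory cells and again in prehierarchical cells. FPKM is the number of sequenced fragments, corrected for transcript length and for library size. Of 13819 genes in any of the tables, 10639 passed the filter on level and 52 of those were members. Because the rule uses the plasmid ratios, these ratios are given below as a description with no test.

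FOXL2 is a forkhead transcription factor of ovarian granulosa cells, the somatic cells that line the follicle around the oocyte and make steroid hormones. In mice, its loss from adult granulosa cells lets them take on features of testicular Sertoli cells. In the hen, follicles pass from a prehierarchical pool, which includes the small yellow follicles, into an ordered hierarchy of preovulatory follicles, and granulosa cells of that hierarchy are the main source of progesterone before ovulation.

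The study has 4 groups with 1 library each. They are preovulatory granulosa cells (follicles F2 to F4) with pcDNA3.1-FOXL2, the same cells with empty pcDNA3.1, prehierarchical granulosa cells (small yellow follicles, SYF) with pcDNA3.1-FOXL2, and these cells with empty pcDNA3.1. All came from animals aged 26 weeks, were kept in culture for 18 h, were transfected with Lipofectamine 2000 and were collected 48 h later, so the lipid reagent and the plasmid backbone are common to all groups. FOXL2 was supplied from a plasmid in cultured primary cells. The sources used here do not say how many animals or wells went into a library. The tables list from 12600 to 12724 genes per library, and no value has a replicate error. The files name genes by Ensembl identifier only, none of which matched the reference gene table, so no member can be given a symbol, a role or a position, the transfected FOXL2 gene itself was not checked, and markers of granulosa or other cell types were not analysed here. The column names of 2 tables, preovulatory control and prehierarchical FOXL2, end in a number and those of the others do not. What that number marks is not stated. It falls on the control in 1 phase and on FOXL2 in the other. Its part in the results was not tested, and it cannot be told apart from a difference in FOXL2 response between phases.

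The set is small beside the number of genes that passed the threshold in either phase. In preovulatory cells 858 genes, 8.06% of those kept, had a FOXL2 log2 ratio of at least 0.4, and in prehierarchical cells 692 genes, 6.50%, did. The 52 members, 0.489% of genes kept, make up 6.06% of the preovulatory list and 7.51% of the prehierarchical list. Both shares lie close to the share of all genes that passed in the other phase, and nothing is read from them, since the rule fixed the count. The phase comparisons share no library. The mirror group, at or below -0.4 in both phases, holds 76 genes. Genes past 0.4 in opposite directions were more numerous: 273 were higher in preovulatory and lower in prehierarchical FOXL2 cells, and 264 had the reverse pattern.

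**Figure D1:**
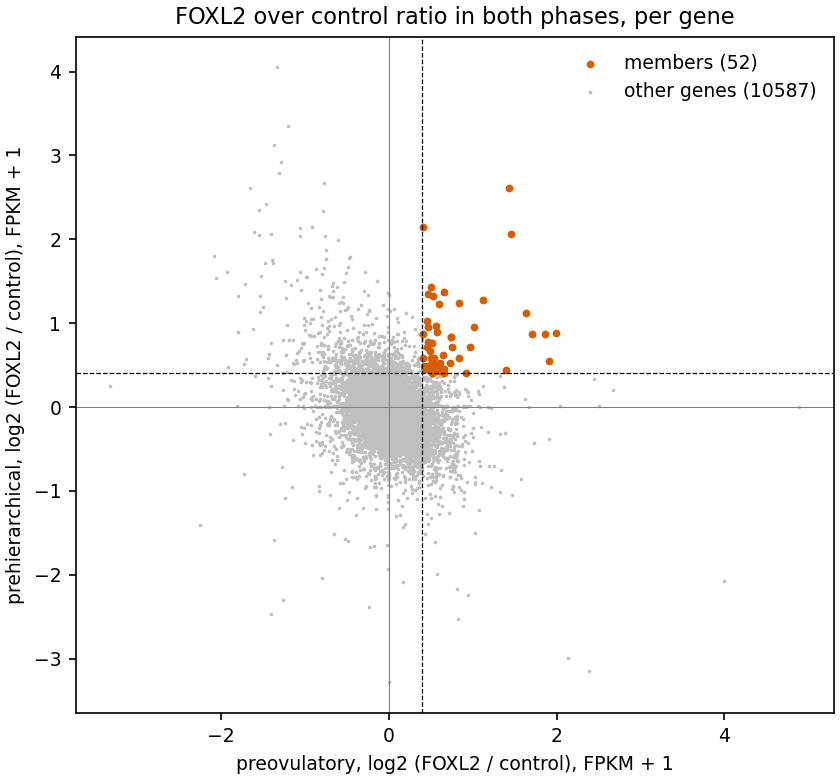
Log2 ratio of FOXL2 over control (FPKM + 1) in preovulatory cells (x axis) and prehierarchical cells (y axis), 1 point per gene. The 52 members (orange) are those at or past the dashed lines at 0.4 in both phases, which is the rule that chose them.

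Members were mostly genes of low level. Their median mean level was 4.0 FPKM, against 17.4 FPKM for all genes kept. The mean lay below 5 FPKM in 32 of the 52 members (61.5%), against 19.3% of all genes kept. Of genes between 1 and 3 FPKM 1.71% were members (22 of 1289), of those between 3 and 10 FPKM 0.701% (16 of 2284), of those between 10 and 30 FPKM 0.328% (12 of 3661) and of those between 30 and 100 FPKM 0 of 2557. At 100 FPKM and over there were 2 members among 848 genes. At that level no gene was past the threshold downwards in both phases, while 9 were higher in preovulatory and lower in prehierarchical FOXL2 cells and 24 the reverse. Low level was not particular to the members. Of the 76 genes of the mirror group, 35 lay between 1 and 3 FPKM and 27 between 3 and 10 FPKM. Between 1 and 3 FPKM 15.6% of genes passed upwards in preovulatory cells and 15.1% in prehierarchical cells. Between 10 and 30 FPKM these shares were 6.88% and 4.75%, and at 100 FPKM and over 3.3% and 5.42%.

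Low values rest on few fragments. Among 502 genes with 1 transcript that are missing from a table, and whose lowest listed values lie within 0.1 log2 units of each other, the median of that lowest value was 0.215 FPKM (quartiles 0.14 and 0.36). If it stands for 1 fragment, 1 FPKM is about 4.65 fragments for such genes and 5 FPKM about 23.3.

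**Figure D2:**
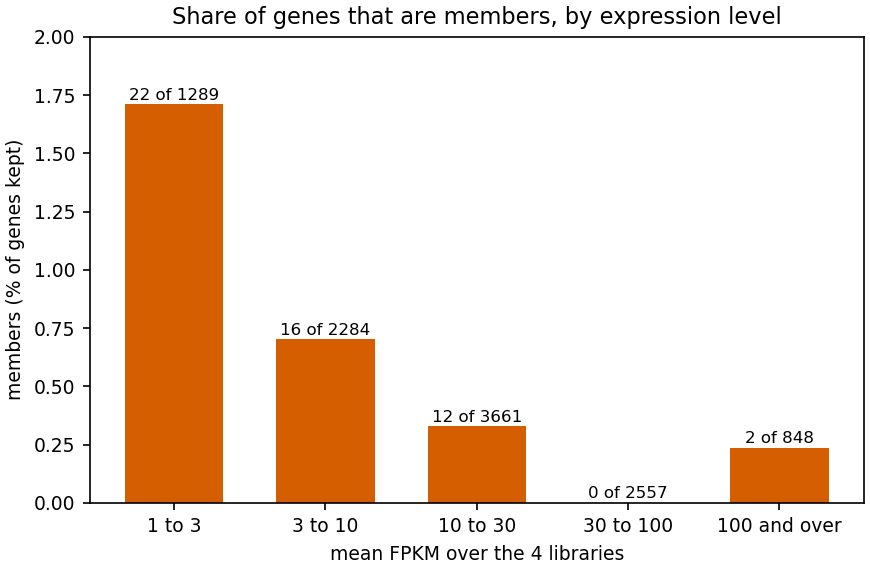
Share of the genes kept that are members (y axis, percent) by mean FPKM over the 4 libraries (x axis), with the counts above each bar. The share is 1.71% at 1 to 3 FPKM and 0.328% at 10 to 30 FPKM; the class from 30 to 100 FPKM holds no member.

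The most abundant member, ENSGALG00000021009, stood apart from the rest in level. It had 1194 FPKM in the preovulatory FOXL2 library against 436 FPKM in its control, and 1747 FPKM in the prehierarchical FOXL2 library against 418 FPKM in its control. Both FOXL2 libraries were thus well above both controls, and the controls of the phases were nearly equal. The linear folds were 2.74 in preovulatory and 4.18 in prehierarchical cells, log2 ratios of 1.45 and 2.06, and with a pseudocount of 5 FPKM the log2 ratios were 1.44 and 2.05. By level it ranked 32nd of all genes in the preovulatory FOXL2 library and 132nd in its control, and 24th in the prehierarchical FOXL2 library against 163rd in its control.

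The other member above 100 FPKM, ENSGALG00000023818, also differed between phases. It was at 69.5 FPKM in the preovulatory FOXL2 library against 38.5 FPKM in its control, and at 305 FPKM in the prehierarchical FOXL2 library against 128 FPKM in its control. The log2 ratios of FOXL2 over control were 0.83 in preovulatory and 1.25 in prehierarchical cells. Its plasmid groups overlap when phases are pooled, because the prehierarchical control lies above the preovulatory FOXL2 library.

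ENSGALG00000023819, whose identifier follows directly on that of the gene just described, had the highest prehierarchical ratio of all members. It had 10.2 FPKM in the preovulatory FOXL2 library against 3.16 FPKM in its control, and 34.5 FPKM in the prehierarchical FOXL2 library against 4.81 FPKM in its control. The log2 ratios were 1.43 and 2.61 in preovulatory and prehierarchical cells. With a pseudocount of 5 FPKM they were 0.90 and 2.01, so the size in both phases depends on how low values are weighted. Both FOXL2 values lay above both control values. This is the single pair of members with consecutive identifiers, and whether the genes lie side by side or share sequence was not examined.

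Only 4 members were at least 2-fold higher in both phases on the log2(FPKM + 1) scale, against a background of 0.0376% of genes that is made up of these same genes. ENSGALG00000021009 and ENSGALG00000023819 are among them, and the remaining pair, named after their values were seen, are genes of about 1 FPKM. ENSGALG00000003188 had 2.11 FPKM in the preovulatory FOXL2 library and was missing from its control table, and it had 2.07 against 0.41 FPKM in prehierarchical cells. ENSGALG00000019384 had 1.17 FPKM in the preovulatory FOXL2 library, was likewise missing from its control table, and had 2.53 against 0.46 FPKM in prehierarchical cells. With a pseudocount of 5 FPKM their 4 log2 ratios lay between 0.30 and 0.51.

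Most members had modest ratios on the log2(FPKM + 1) scale, which understates changes of low genes and is used for the counts here. The median log2 ratio of FOXL2 over control was 0.58 in preovulatory cells (quartiles 0.48 and 0.83, highest 1.99) and 0.71 in prehierarchical cells (quartiles 0.49 and 0.96, highest 2.61). Over all genes kept the medians were 0.00 and -0.05. Of the 52, 34 were under 2-fold in both phases on that scale, 6 reached 2-fold in preovulatory cells alone and 8 in prehierarchical cells alone. In FPKM without the added 1, some of these 34 were past 2-fold in a phase. With the members 2-fold in both phases included, 10 (19.2%) were 2-fold higher in preovulatory and 12 (23.1%) in prehierarchical FOXL2 cells. Over all genes kept these shares were 0.498% and 1.06%, and the rule chose members on these same ratios. The smaller of a member's ratios was under 0.5 for 23 members and from 0.5 to under 1 for 25. At the edge of the rule, the 5 members just inside had a smaller ratio of 0.401 to 0.411, and the 5 genes just outside one of 0.393 to 0.399. A further 33 genes met both ratios but had a mean under 1 FPKM.

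The 12 members between 10 and 30 FPKM, with means of 12.1 to 27.4 FPKM, lay mostly close to the threshold of the rule. Their preovulatory log2 ratios ran from 0.41 to 1.86 with a median of 0.50, and their prehierarchical ratios ran from 0.40 to 2.61 with a median of 0.49. In 8 of these 12 both ratios were under 0.65.

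The size of the difference was not the same in both phases for every member. The preovulatory minus prehierarchical FOXL2 log2 ratio had a median of -0.04 over the members, with quartiles of -0.34 and 0.14 and a range of -1.73 to 1.36. It was above 0 for 22 members and below 0 for 30, and 23 members had ratios within 0.2 of each other.

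As levels, the members had a median of 4.23 FPKM in the preovulatory FOXL2 library against 2.28 FPKM in its control, and of 5.14 FPKM in the prehierarchical FOXL2 library against 2.98 FPKM in its control. For the 20 members with a mean of at least 5 FPKM these medians were 12.9 against 7.34 FPKM and 17.9 against 10.3 FPKM. For the 32 members below that mean they were 2.31 against 0.875 FPKM and 3.43 against 1.64 FPKM. Both FOXL2 values lay above both control values in 26 members, against 3.34% of all genes kept, a count that follows in large part from the rule. In the other 26, at least 1 FOXL2 library of a phase was no higher than the control of the other phase.

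**Figure D3:**
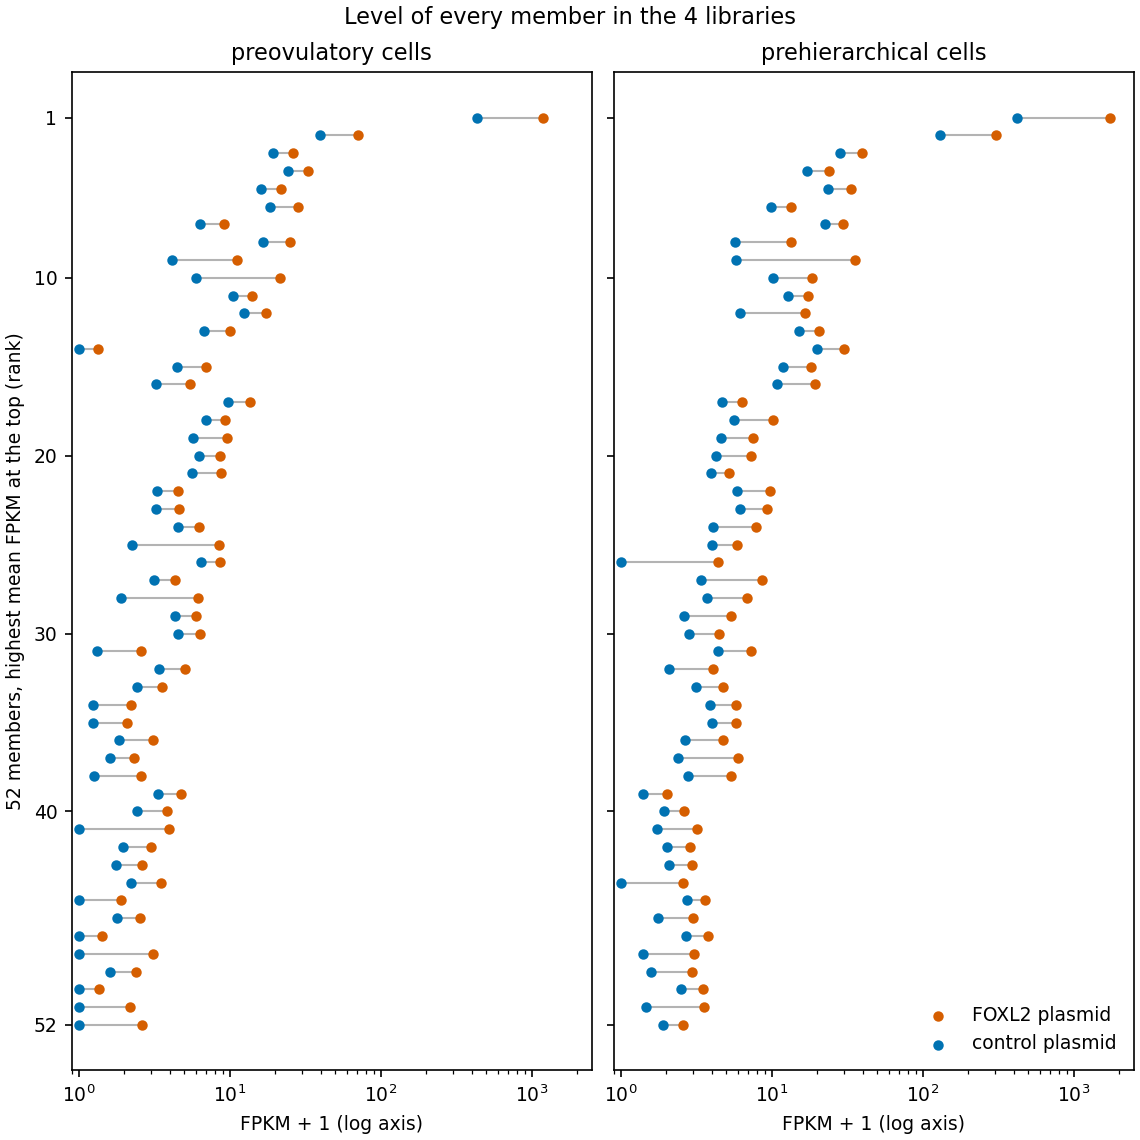
FPKM + 1 (x axis, log scale) of each of the 52 members (y axis, ranked by mean FPKM) in preovulatory cells (left) and prehierarchical cells (right), with the FOXL2 plasmid in orange and the control plasmid in blue. The most abundant member is at 1194 against 436 FPKM and at 1747 against 418 FPKM, and 10 members have a control value of 0.

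A table lacked 10 of the members, always a control table: 8 were missing from the preovulatory control and 2 from the prehierarchical control, and 42 were listed in all 4. A missing gene was taken as 0. That is 19.2% of the members, against 1.16% of all genes kept, and since a gene absent from a FOXL2 table cannot be higher there, the side is fixed by the rule. A control value set to 0 also raises the ratio that the rule uses, so nothing is read from the larger share among members. The members of several transcripts were 3 of 52 (5.77%), against 5.21% of all genes kept.

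Together the members held 0.305% of all FPKM in the preovulatory FOXL2 library against 0.126% in its control, and 0.452% in the prehierarchical FOXL2 library against 0.151% in its control. ENSGALG00000021009 alone accounted for 0.226% against 0.0807% in preovulatory and 0.314% against 0.0782% in prehierarchical cells. The other 51 members held 0.0793% against 0.0450% and 0.138% against 0.0723%.

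Phase was not part of the rule, but the phase ratios are built from the same 4 values that the rule used, so they are not independent of it. Missing control values set to 0 act on them too. With the control plasmid, the 8 members missing from the preovulatory control were thereby lower in preovulatory cells. The 2 missing from the prehierarchical control were thereby higher. More members were lower than higher in preovulatory cells. With both plasmids, 12 of 52 (23.1%) were at least 2-fold lower in preovulatory than in prehierarchical cells, against 5.35% of all genes kept, and 2 (3.85%) were at least 2-fold higher, against 3.82%. The filter on level fixes part of this: 7 of the 12 averaged under 1 FPKM in preovulatory cells and 1 of the 2 under 1 FPKM in prehierarchical cells, so that they passed only through the phase where they are high. Of the 38 members that averaged at least 1 FPKM in each phase, 5 (13.2%) were lower, against 4.24% of all such genes, and 1 (2.63%) was higher, against 3.42%. With the FOXL2 plasmid alone, 15 of 52 members (28.8%) were 2-fold lower in preovulatory cells, against 7.69% of all genes kept, and 3 (5.77%) were 2-fold higher, against 9.37%. With the control plasmid alone, 13 members were lower, against 8.09%, and 6 (11.5%) were higher, against 7.41%. These single-plasmid counts also hold members that averaged under 1 FPKM in the phase where they are low. They were not repeated without such members, so the filter fixes part of them too. Genes of low level were more often apart between phases. Among genes with a mean under 5 FPKM, 6 of 32 members (18.8%) and 8.86% of all genes were lower with both plasmids. Among genes of at least 5 FPKM, 6 of 20 members and 4.51% of all genes were. On the higher side there was 1 member at each level, beside 4.72% of all genes under 5 FPKM and 3.60% of those above. Every one of these members under 5 FPKM averaged under 1 FPKM in the phase where it is low, as did ENSGALG00000019719 above 5 FPKM. The filter thus fixed their side, and nothing is read from the class under 5 FPKM. The median log2 ratio of preovulatory over prehierarchical cells was -0.31 for members with FOXL2 and -0.49 with the control plasmid, against 0.23 and 0.17 for all genes kept. These medians, and those below at a pseudocount of 0.1 FPKM, include members that averaged under 1 FPKM in 1 phase. The medians were not repeated without such members, so the filter fixes part of them. With a pseudocount of 0.1 FPKM the rule admits 108 members, whose medians were 0.02 with FOXL2 and 0.03 with control, while the 52 members above had -0.36 and -0.57 at that pseudocount. Of the 108, 23 (21.3%) were lower and 11 (10.2%) higher by 2-fold with both plasmids, against 6.95% and 5.33% of all genes kept. With the median log2 level of the libraries set equal, the rule admits 67 members, of which 19 (28.4%) were lower and 0 higher, against 7.83% and 1.95% of all genes kept. The counts among the 108 and the 67 were not restricted to members of at least 1 FPKM in each phase. The filter thus fixes part of them too.

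In the additive limma model of phase and plasmid, fitted over all 10639 genes, 17 members (32.7%) were lower and 5 (9.62%) higher in preovulatory cells at a Benjamini-Hochberg adjusted p under 0.05. Over all genes kept 11.7% were called lower and 19.3% higher. Of the 17, 8 averaged under 1 FPKM in preovulatory cells and so passed the filter through prehierarchical cells alone; among the 38 members of at least 1 FPKM in each phase, 9 (23.7%) were called lower and 4 (10.5%) higher, against 10.5% and 19.5% of all such genes. Without the filter limma called 0 of 13819 genes, with 4813 at an unadjusted p under 0.05, and with a pseudocount of 5 FPKM the rule admits 7 members, of which 1 was called lower and 1 higher. With library medians set equal, 1060 of all genes were called higher and 1977 lower, against 2049 and 1244 as deposited. The model has 1 residual degree of freedom per gene, drawn from how far a gene's plasmid ratio differs between phases. The rule acts on that difference for members, since it keeps out plasmid ratios of opposite sign, but it sets no upper bound on it. All genes kept include ratios of opposite sign, so the shares called among members and among all genes are not a like comparison. At an unadjusted limma p under 0.05 were 50.0% of members and 46.4% of all genes kept. Each phase is represented by a pair of libraries whose cell preparations are not described, so phase and a difference between preparations cannot be told apart.

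At the prehierarchical end, ENSGALG00000023818, with the 4 values given above, had phase log2 ratios of -2.12 with FOXL2 and -1.71 with control and a limma log2 difference of -1.91 (SE 0.15, adjusted p = 0.00253). ENSGALG00000020840 had 4.42 FPKM in preovulatory and 18.3 FPKM in prehierarchical FOXL2 cells, and 2.24 FPKM in preovulatory and 9.84 FPKM in prehierarchical control cells. Its limma log2 difference was -1.79 (SE 0.21, adjusted p = 0.00622). Both its prehierarchical libraries lay above both preovulatory ones. The widest phase difference of any member, singled out after the values were seen, belonged to ENSGALG00000019719. It had 0.33 FPKM in preovulatory and 29.0 FPKM in prehierarchical FOXL2 cells, and in control cells it was missing from the preovulatory table and at 19.0 FPKM in prehierarchical cells. Its place in the set rests in preovulatory cells on 0.33 FPKM against a missing value.

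At the preovulatory end, ENSGALG00000009317 had 24.2 FPKM in preovulatory and 12.4 FPKM in prehierarchical FOXL2 cells, and 15.7 FPKM in preovulatory and 4.72 FPKM in prehierarchical control cells. Its limma log2 difference was 1.23 (SE 0.22, adjusted p = 0.0171). ENSGALG00000021074 had 12.7 against 5.32 FPKM with FOXL2 and 8.73 against 3.66 FPKM with control, in preovulatory against prehierarchical cells. Its limma log2 difference was 1.09 (SE 0.21, adjusted p = 0.0192). Its plasmid log2 ratios were 0.49 in preovulatory and 0.44 in prehierarchical cells, and with a pseudocount of 5 FPKM they were 0.36 and 0.25, under the threshold of the rule.

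The first 2 members by the smaller of their plasmid ratios were not called for phase. The limma log2 difference of ENSGALG00000021009 was -0.24 (SE 0.19, adjusted p = 0.35) and that of ENSGALG00000023819 was -1.07 (SE 0.32, adjusted p = 0.0518). In direction, 26 members were lower and 15 were higher in preovulatory cells with both plasmids, and 11 had phase ratios of opposite sign with the plasmids. The matching shares over all genes kept were not worked out, so nothing is read from this split. With FOXL2 59.6% of members and 36.0% of all genes kept were lower in preovulatory cells. With the control plasmid 61.5% of members and 38.3% of all genes kept were. These counts of lower members include those that the filter admitted through prehierarchical cells alone.

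**Figure D4:**
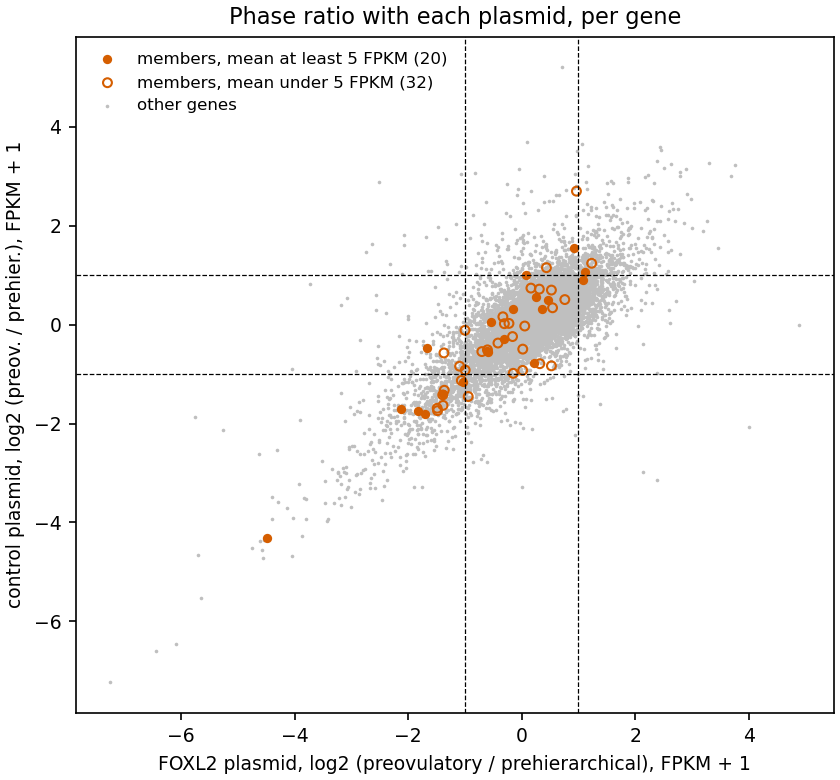
Log2 ratio of preovulatory over prehierarchical cells (FPKM + 1) with the FOXL2 plasmid (x axis) and the control plasmid (y axis), 1 point per gene, with dashed lines at 2-fold. Members with a mean of at least 5 FPKM are filled and those below it are open; 12 members lie at or past 2-fold in the lower left and 2 in the upper right.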

How the data were processed

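RNA from the 4 libraries was sequenced, and the authors deposited FPKM values, per the file headers, in 1 table per library. The tools were Bowtie and RSEM and the build galGal4, per the submitters' processing notes (versions, parameters and strand use: not given in the sources used here). Listed values start at 0.01 FPKM, and genes absent from a table were set to 0. Absolute depth is unknown, and RSEM shares fragments between similar transcripts. Ratios were taken on log2(FPKM + 1), which understates changes of low genes, with pandas 2.3.3 and numpy 2.4.6 under Python 3.11.15. Phase was tested with limma 3.58.1 in R 4.3.3 (phase + plasmid, mean trend of the variance, Benjamini-Hochberg over 10639 genes), and the script was tested on simulated data. Variation between cultures or animals does not enter its p-values.

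The members and lists were chosen with earlier results of these data known. Identifiers were named by rule among members listed in all 4 tables with a mean of at least 5 FPKM: the first 2 by the smaller plasmid ratio, the 2 highest and 2 lowest by mean phase ratio, and the most abundant member. The gene and marker lists drawn up by symbol were not analysed here. Alternatives were no filter, a filter at 5 FPKM, pseudocounts of 0.1 and 5, equal library medians, ratio thresholds of 0.3, 0.5 and 1, limma without the mean trend, the FPKM share without the most abundant member, and, added after seeing the data, genes listed in all 4 tables, genes of at least 1 FPKM in each phase, and the phase ratio of the same 52 members at a pseudocount of 0.1.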

Additional observations from a re-analysis of the deposited data

Results flagged for a closer look

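Of the 52 members, 1 had phase ratios of at least 0.4 in opposite directions with the plasmids, and it was singled out for that after its values were seen. ENSGALG00000026935 had 7.47 FPKM in preovulatory and 4.89 FPKM in prehierarchical FOXL2 cells, a log2 ratio of 0.52. In control cells it had 1.26 FPKM in preovulatory and 3.03 FPKM in prehierarchical cells, a log2 ratio of -0.83. The difference between these ratios was not tested, since each rests on a pair of libraries. It equals the difference between the gene's plasmid log2 ratios, 1.91 in preovulatory and 0.55 in prehierarchical cells, on which the rule acts. How many of all genes kept have such opposite phase ratios was not counted.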

How the results depend on the processing

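With 1 library per group, leaving a library out removes a group and leaves the additive model no residual degree of freedom, so none was left out. No paired analysis was possible because each group has 1 library; phase is already a term of the model. The set of 52 depends strongly on the settings. It held 108 genes with a pseudocount of 0.1 FPKM, 7 with 5 FPKM, 85 with no filter on level, 20 with a filter at 5 FPKM, and 111, 29 and 4 at ratio thresholds of 0.3, 0.5 and 1. All 52 remained at 0.1 FPKM, without the filter and at 0.3. It held 67 genes with equal library medians, 49 of them shared, and 42 listed in all 4 tables. Members 2-fold apart between phases with both plasmids numbered 14 (2 higher, 12 lower). There were 34 (11 and 23) with a pseudocount of 0.1, 1 (0 and 1) with 5, 7 (1 and 6) with the filter at 5 FPKM and 19 (0 and 19) with equal medians; the count was 14 without the filter and 11 for genes listed in all 4 tables. Limma's 22 phase calls (5 higher, 17 lower) became 2 (1 and 1) with a pseudocount of 5 and 11 (3 and 8) with the filter at 5 FPKM, where 2098 and 1904 of all genes were called higher and 1257 and 974 lower. The original 52 members still had 5 higher and 17 lower calls with a pseudocount of 5. Among members of at least 1 FPKM in each phase, added after seeing the data, 6 (1 higher, 5 lower) were 2-fold apart and limma called 13 (4 higher, 9 lower). Of all such genes 3.42% were 2-fold higher and 4.24% lower, and limma called 19.5% higher and 10.5% lower. Without the filter limma called 0 (0 higher, 0 lower) at an adjusted p under 0.05, with 29 of 85 members (34.1%) at an unadjusted p under 0.05, against 34.8% of all genes. With a pseudocount of 0.1 there were 28 calls among 108 members, 8 of them higher and 20 lower. Of all genes 17.7% were then called higher and 10.7% lower. Equal medians gave 28 calls among 67 members (4 higher, 24 lower), against 9.96% and 18.6% of all genes. Without the mean trend there were 19 among 52 (4 and 15), against 1381 and 993 of 10639 genes. For genes listed in all 4 tables there were 18 among 42 (4 and 14), against 2101 and 1241 of 10516 genes. These totals rest on different numbers of members, so similar totals are not similar shares. The median phase log2 ratios of members, -0.31 with FOXL2 and -0.49 with control, were 0.02 and 0.03 with a pseudocount of 0.1, -0.09 and -0.27 with 5, and -0.59 and -0.69 with equal medians. The members were chosen anew under each setting except limma without the mean trend, which used the same 52. For these 52 the medians with a pseudocount of 0.1 in the phase ratio were -0.36 and -0.57. The medians of the 52 include members that the filter admitted through 1 phase alone. No other cause was tested. Without the most abundant member the FPKM shares were 0.0793% in the preovulatory FOXL2 library and 0.0450% in its control, and 0.138% in the prehierarchical FOXL2 library and 0.0723% in its control. Values near 1 FPKM rest on few fragments.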
